A study of Mus musculus with 8 samples.

Results

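Type I interferon-stimulated antiviral genes are the genes that a cell switches on after interferon α or β binds its receptor, and they encode much of its intrinsic defence against viruses. The 38 genes described here were taken from a list of mouse symbols and matched to the Ensembl genes of the count table. All 38 were found among the 34745 genes of the table, and 37 passed the filter on low counts. The remaining gene, Ifi44l, had 0 counts in every library, which is under the floor of 3 counts per library (0.14 to 0.162 CPM, the count divided by the scaled library size). Messenger RNA was sequenced from bone-marrow-derived macrophages (BMDM), primary mouse macrophages grown out of bone marrow, here in M-CSF at 20 ng/ml. The 8 libraries form 4 groups of 2: wild-type (WT) and KAT8-deficient cells, labelled KAT8-cKO, each untreated or given R848 at 100 ng/ml for 6 h. KAT8, or MOF, acetylates lysines of histone H4. R848, or resiquimod, is a synthetic compound that activates TLR7, which senses RNA inside endosomes. The sources used here do not give how the deletion was driven, which part of Kat8 was removed, or the strain and age of the mice.

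In this pathway, TLR7 or cytosolic sensors activate kinases and interferon regulatory factors, which switch on the genes of interferon α and β. Secreted interferon binds the receptor made of IFNAR1 and IFNAR2, the kinases JAK1 and TYK2 phosphorylate STAT proteins, and these join IRF9 in the complex ISGF3. ISGF3 binds the interferon-stimulated response element (ISRE) in the promoters of target genes such as the members here. Their products bind viral RNA (IFIT proteins), make an oligoadenylate messenger (OAS proteins) or modify other proteins (ISG15). Others block viral ribonucleoproteins (MX1), hold budding virus at the membrane (BST2) or sense RNA and DNA (MDA5, RIG-I and ZBP1). Macrophages hold a low level of these transcripts without a virus and raise it when interferon signals.

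Promoters of the Ifit genes, Isg15, Rsad2 and Oas3 are shown first, because most of them are called below and their promoters differ in matches to the element that ISGF3 binds. Each run is the 200 bases before the RefSeq transcription start, 5′ to 3′ on the gene's strand, from the GRCm38.p6 build, with capitals marking matches to the ISRE core, which is TTTC, any 2 bases and TTTC again, on either strand.
Ifit1: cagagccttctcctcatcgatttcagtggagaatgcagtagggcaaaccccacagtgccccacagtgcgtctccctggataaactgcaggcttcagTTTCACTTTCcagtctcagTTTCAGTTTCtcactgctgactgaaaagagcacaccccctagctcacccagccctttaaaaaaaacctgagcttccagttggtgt
Ifit3: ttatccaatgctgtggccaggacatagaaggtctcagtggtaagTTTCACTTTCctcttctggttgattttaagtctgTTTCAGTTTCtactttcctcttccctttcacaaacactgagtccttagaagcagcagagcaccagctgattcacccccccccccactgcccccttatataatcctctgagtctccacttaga
Ifit3b: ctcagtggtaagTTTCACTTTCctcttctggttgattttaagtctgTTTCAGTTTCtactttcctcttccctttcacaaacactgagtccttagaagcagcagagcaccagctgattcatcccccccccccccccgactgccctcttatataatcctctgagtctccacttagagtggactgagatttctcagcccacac
Ifit2: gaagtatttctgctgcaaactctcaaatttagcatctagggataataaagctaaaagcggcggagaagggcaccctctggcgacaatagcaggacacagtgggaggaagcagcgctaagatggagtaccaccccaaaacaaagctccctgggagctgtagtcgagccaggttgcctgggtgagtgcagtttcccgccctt
Isg15: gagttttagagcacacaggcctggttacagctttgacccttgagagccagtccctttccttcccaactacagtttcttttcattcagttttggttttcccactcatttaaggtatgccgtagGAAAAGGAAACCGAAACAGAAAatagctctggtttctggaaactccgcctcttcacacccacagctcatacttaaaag
Rsad2: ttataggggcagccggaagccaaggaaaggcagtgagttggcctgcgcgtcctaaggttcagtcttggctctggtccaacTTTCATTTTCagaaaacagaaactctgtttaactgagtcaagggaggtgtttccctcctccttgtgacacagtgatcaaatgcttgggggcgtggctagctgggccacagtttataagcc
Oas3: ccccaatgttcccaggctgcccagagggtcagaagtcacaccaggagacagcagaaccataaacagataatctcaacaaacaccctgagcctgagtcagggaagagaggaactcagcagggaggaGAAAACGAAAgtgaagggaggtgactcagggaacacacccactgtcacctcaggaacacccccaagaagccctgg

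The Ifit1 run lies at chr19:34640689-34640888, that of Ifit3 at chr19:34583329-34583528, that of Ifit3b at chr19:34607757-34607956 and that of Ifit2 at chr19:34550494-34550693, all on the plus strand. Those of Isg15 (chr4:156200819-156201018), Rsad2 (chr12:26456453-26456652) and Oas3 (chr5:120777660-120777859) are on the minus strand. Ifit1, Ifit3 and Ifit3b each held 2 separate matches, Rsad2 and Oas3 held 1, and Isg15 held 3 that overlap in a single run. Ifit2 held none in this window. RefSeq promoters of 300 bases (250 before to 50 after the start) were matched for 29 of the 38 members, and none for Mx1, Mx2, Oas2, Usp18, Dhx58, Rtp4, Zbp1, Parp14 and Parp9. At least 1 match to the ISRE core was present in 13 of the 29 (44.8%), and in 14 of their 34 promoters (41.2%), against 3.44% of all 32851 promoters of the same length. The gamma-activated site TTCNNNGAA, searched on both strands, was present in 7 of the 29 (24.1%), or 20.6% of their promoters, against 8.3% of all promoters. Some matches to one motif can overlap matches to the other, and a match is only a run of letters.

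Members lie in clusters on the genome. Ifit2, Ifit3, Ifit3b and Ifit1 are neighbours on chromosome 19, between 34550694 (start of Ifit2) and 34650009 (end of Ifit1). Rsad2 and Cmpk2 are 12.8 kb apart on chromosome 12, Oas2 and Oas3 3.2 kb apart and Oasl2 and Oasl1 11.0 kb apart on chromosome 5, and Mx1 and Mx2 72.4 kb apart on chromosome 16. Dtx3l and Parp9 overlap at their 5′ ends on opposite strands of chromosome 16. They share 458 exonic bases, and since no source used here states whether counting was stranded, reads from that stretch could have counted for either gene. Close copies limit a few values as well: 51.2% of the 50-base words of Ifit3 also occur in other genes, as do 57.6% of those of Oas1a, 45.7% of those of Oas1g and 45% of those of Ifit3b. The main partners are Ifit3 with Ifit3b and Oas1a with Oas1g, so the separate values of these 4 genes are uncertain. Aligned promoters of 300 bases were identical in 259 of 340 columns (76.2%) for Ifit3 and Ifit3b. For Oas1a and Oas1g they were identical in 261 of 306 columns (85.3%). Columns with a gap are counted in both totals. The windows of Ifit3 and Ifit3b are offset, with the ISRE-core matches of Ifit3b further from its start. Their 76.2% therefore understates the identity of the stretch that both windows hold.

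Total counts ran from 18550977 to 21384532 per library. Kat8 itself, which checks the labels, measured 17 and 17.9 CPM in untreated WT, 18 and 16 in R848-treated WT, 8.76 and 10.8 in untreated KAT8-deficient and 9.94 and 10.4 CPM in R848-treated KAT8-deficient cells. The WT and KAT8-deficient libraries did not overlap, and KAT8-deficient cells differed by -0.83 (log2, SE 0.13, adjusted p = 0.0113 by edgeR) without treatment and by -0.74 (SE 0.12, adjusted p = 0.00553) under R848. All 8 macrophage markers were tested, and their summed level was 3631 to 4531 CPM across the libraries. R848 raised 3 and lowered 2 of them in WT cells, and in KAT8-deficient cells 3 were lower and 1 higher under R848, none was called untreated, and 2 were lower and 1 higher over both states. Markers of stromal cells (10 genes, among them Col1a1 and Pdgfra) were also abundant: their summed level was 3262 and 3781 CPM in untreated WT, 2742 and 2951 in R848-treated WT, 4763 and 4519 in untreated KAT8-deficient and 4089 and 4008 CPM in R848-treated KAT8-deficient cells. Of these 10, 7 were called higher in KAT8-deficient cells untreated, 8 under R848 and 8 over both states. R848 lowered 5 and raised 1 of them in WT cells, and lowered 2 and raised 0 in KAT8-deficient cells. Of all tested genes, R848 raised 6.94% and lowered 6.7% in WT cells, and raised 0.499% and lowered 0.135% in KAT8-deficient cells. KAT8-deficient cells were higher in 2.91% untreated, 8.14% under R848 and 11% over both states, and lower in 1.36%, 5.47% and 7.56%. Plasmacytoid dendritic markers summed to 3.16 to 6.19 CPM, with Siglech, Pacsin1 and Klk1 at or under 3 counts in every library. In such bulk samples fewer cells of a type and less RNA per cell cannot be told apart, and the part of the stromal and macrophage markers in the results below was not tested.

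The replicates of 1 group differed across the whole member list. In R848-treated KAT8-deficient cells, replicate 1 was above replicate 2 in 37 of 37 tested members, with a median log2 difference of 0.28, while 48.4% of all 14040 tested genes were above and their median difference was 0.00. The other groups had replicate 1 above replicate 2 in 26 (untreated WT), 27 (R848-treated WT) and 20 (untreated KAT8-deficient) of 37. Among all tested genes the shares in the same groups were 50.4%, 50.1% and 49.9%, so the members leaned to replicate 1 in both WT groups too. Interferon-stimulated genes outside the members differed less evenly, with 17 of 25 above. Of 959 other genes that rose under R848 in WT, 23.7% were above, with a median of -0.10, so this pair did not differ in the same way over all R848-raised genes. Where leaving out either library of this pair changes a member's genotype call under R848, the genotype difference without it is given below. No label states that replicates were separate cultures or mice, and p-values therefore measure only the spread between these libraries, which may be technical.

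**Figure D1:**
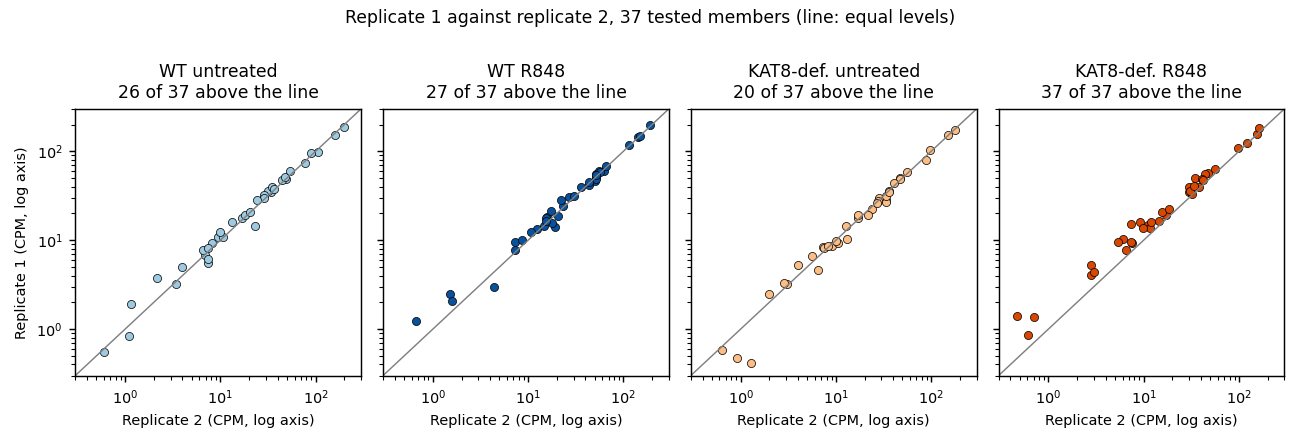
Each panel is 1 group and each point 1 of the 37 tested members, with the CPM of replicate 2 (x axis, log scale) against that of replicate 1 (y axis, log scale) and the line of equality. In R848-treated KAT8-deficient (KAT8-def.) cells all 37 points lie above the line, and in the other groups 20 to 27 do.

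The members spanned a wide range of levels. Per kb of exon, Bst2, the membrane tether that holds budding virus, was highest in untreated WT cells at 113 CPM per kb. It was followed by the ubiquitin ligase gene Trim25 (33.4 CPM per kb), Oas1a (25.7) and Samhd1 (17.1), a dNTP hydrolase. Isg15 stood at 11.6, Parp14 at 9.85 and Rsad2 at 8.07 CPM per kb. The lowest levels were those of Mx1 (0.779), Mx2 (0.422), Ifit3b (0.289) and Ifi44 (0.157), followed by Ifi44l at 0. Summed over the 38 members, the libraries held 1270 and 1257 CPM in untreated WT, 1546 and 1504 in R848-treated WT, 1130 and 1147 in untreated KAT8-deficient and 1349 and 1168 CPM in R848-treated KAT8-deficient cells. R848-treated WT libraries were thus the highest and untreated KAT8-deficient libraries the lowest, and the 2 remaining KAT8-deficient libraries fell on either side of untreated WT.

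**Figure D2:**
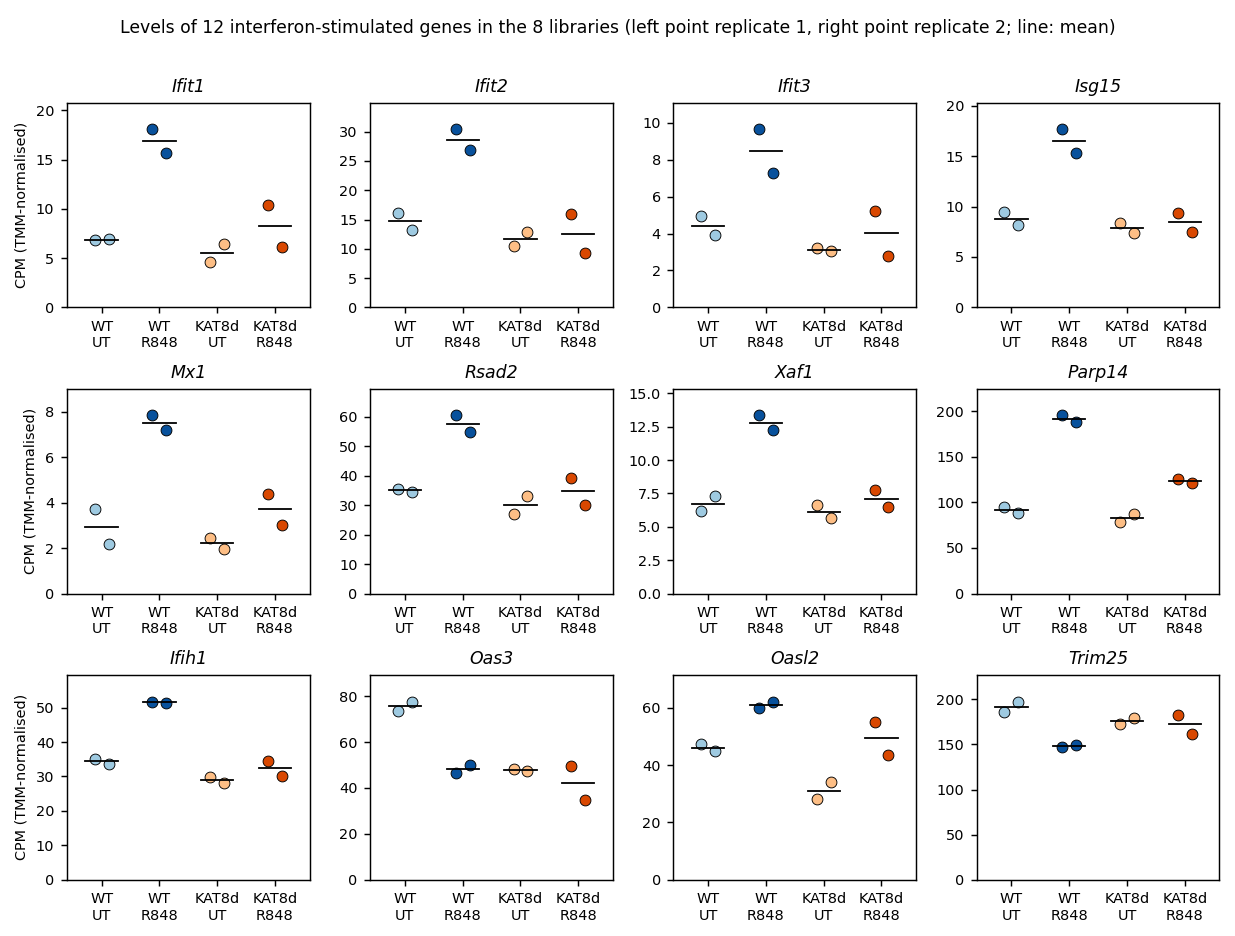
Each panel gives 1 of 12 members, with CPM on a linear axis from 0, 1 point per library (replicate 1 left, replicate 2 right) and a line at the mean of each group (UT, untreated; KAT8d, KAT8-deficient). R848-treated WT cells are highest for Isg15 (17.7 and 15.3 CPM) and Parp14 (195 and 188 CPM), and untreated WT cells are highest for Oas3 (73.7 and 77.7 CPM).

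The first comparison asks what 6 h of R848 did to these genes in WT cells. Of the 37 tested members, 16 rose (43.2%, against 6.94% of all tested genes) and 2 fell (5.41%, against 6.7% of all tested genes), by edgeR's quasi-likelihood test at an adjusted p under 0.05. The largest rises were those of Mx1 (2.52-fold), Ifit1 (2.47-fold), Rtp4 (2.19-fold) and Parp14 (2.09-fold), and the 2 that fell were Oas3 and Trim25. The median log2 change was 0.51 over the members and 0.00 over all tested genes. In 29 of 37 members both R848-treated libraries lay above both untreated ones, as did 27.7% of all tested genes. The number called was 7 without untreated replicate 2, 8 without R848 replicate 1 and 12 without R848 replicate 2, and in these 3 fits neither Oas3 nor Trim25 was called. The calls for Ddx58, Dtx3l, Ifih1, Isg15, Parp14, Parp9 and Xaf1 held whichever library was left out and under each other setting tried, and each of the other 11 was lost without at least 1 library.

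In KAT8-deficient cells the same treatment raised 1 of 37 members, Parp14 (2.7%, against 0.499% of all tested genes), and lowered none. Called genes of either direction were 0.634% of all tested genes in this comparison and 13.6% in WT cells. At an unadjusted p under 0.05, 10 members were higher and 1 lower by edgeR (7.26% and 6.58% of all tested genes). The member median was 0.21, and 13 members were higher without overlap of the libraries (23.8% of all tested genes). Of the 16 members that rose in WT cells, all 16 had a log2 change above 0 and below that in WT cells, with a median of 0.26 (range 0.08 to 0.73) against 0.76 in WT, and in 8 of the 16 the KAT8-deficient libraries did not overlap. These 16 were chosen by their WT rise, which by itself favours a larger WT value. Measured against the mean of the untreated KAT8-deficient libraries, 36 of 37 members were higher in R848 replicate 1 (median log2 0.28) and 18 of 37 in replicate 2 (median 0.00). For WT cells the same medians were 0.53 and 0.44, with 32 of 37 members higher in each library. The member median of the fitted change was -0.01 without replicate 1 and 0.33 without replicate 2.

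**Figure D3:**
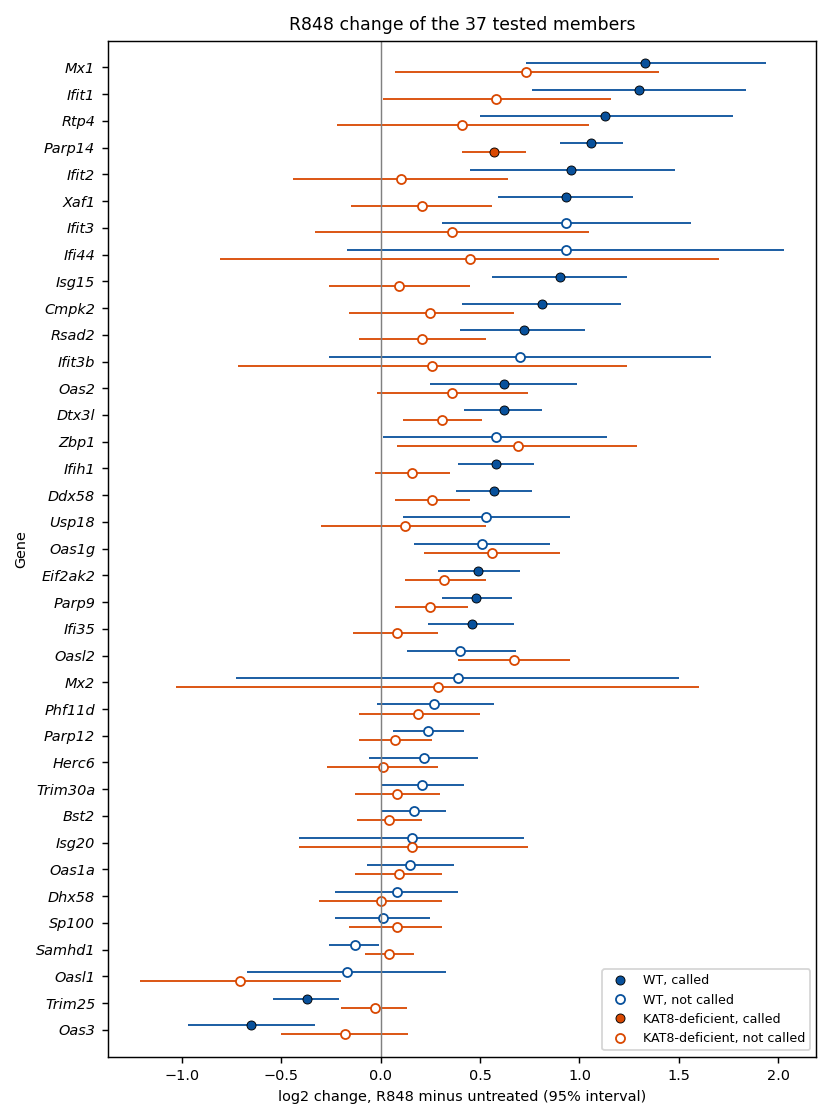
The log2 change with R848 of each tested member in WT and in KAT8-deficient cells, with 95% intervals from the edgeR fit and filled points where the adjusted p was under 0.05. Filled points number 18 in WT and 1 (Parp14) in KAT8-deficient cells.

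Whether the response differs between genotypes was tested by the interaction, the KAT8-deficient change minus the WT change. None of the 37 members passed, and 0.228% of all tested genes did (0.057% with an interaction above 0). DESeq2 called 1 member, Parp14 (-0.50, adjusted p = 0.0191), for which edgeR gave -0.50 (SE 0.098, 95% interval -0.72 to -0.27, adjusted p = 0.0825). At an unadjusted p under 0.05 by edgeR, the interaction was below 0 in 9 members and above 0 in 2 (5.51% and 5.88% of all tested genes). A value above 0 need not be a stronger response in KAT8-deficient cells. Oas3 changed by -0.65 in WT and -0.18 in KAT8-deficient cells, and Trim25 by -0.37 and -0.03, which are smaller falls. The 5 members with the largest differences were Ifit2 (-0.86, 95% interval -1.60 to -0.11), Isg15 (-0.81, -1.29 to -0.32), Ifit1 (-0.72, -1.51 to 0.07), Rtp4 (-0.72, -1.62 to 0.18) and Xaf1 (-0.72, -1.21 to -0.23). Their adjusted p by edgeR lay between 0.171 and 0.551. The member median was -0.26, or -0.38 without replicate 1 and -0.15 without replicate 2 of the R848-treated KAT8-deficient cells, and without replicate 2 Oas3 was called (0.71, adjusted p = 0.0286).

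Untreated KAT8-deficient cells were compared with untreated WT cells next. Oas3, Oasl2 and Phf11d fell, 3 of 37 members (8.11%, against 1.36% of all tested genes), and none rose (2.91% of all tested genes did). At an unadjusted p under 0.05 by edgeR 7 were lower (8.85% of all tested genes). Called genes of either direction were 4.27% of all tested genes. The member median was -0.14, and 19 members were lower without overlap (25.5% of all tested genes). None of the 3 calls held without untreated WT replicate 1 or 2, or without untreated KAT8-deficient replicate 1 or 2, each of which left 0 called. The call count was 1 without either R848-treated WT library.

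Under R848, 17 of 37 members were lower in KAT8-deficient than in WT cells (45.9%, against 5.47% of all tested genes) and none was higher (8.14% of all tested genes were), with 13.6% of all tested genes called either way. Ifit2 (0.439 of the WT level), Ifit1 (0.49), Mx1 (0.493) and Isg15 (0.512) were among the lowest, and the calls for Ifih1, Isg15 and Parp14 held whichever library was left out and under each other setting tried. The member median was -0.38 against -0.01 over all tested genes, and 26 members were lower without overlap (30.3% of all tested genes). Of the 17, 13 had also risen with R848 in WT cells, but both comparisons use the same 2 R848-treated WT libraries. The count was 3 without R848-treated WT replicate 1, 8 without its replicate 2, 7 (6 lower, and Trim25 higher at 0.31, adjusted p = 0.0406) without R848-treated KAT8-deficient replicate 2, and 17 without replicate 1. Without that replicate 2 the lower ones were Ifih1, Ifit2, Isg15, Parp14, Rsad2 and Xaf1. Without replicate 1, Ddx58, Ifi35 and Parp9 were lost and Oas3, Rtp4 and Zbp1 were called. The member median was -0.51 without that replicate 1 and -0.27 without replicate 2.

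**Figure D4:**
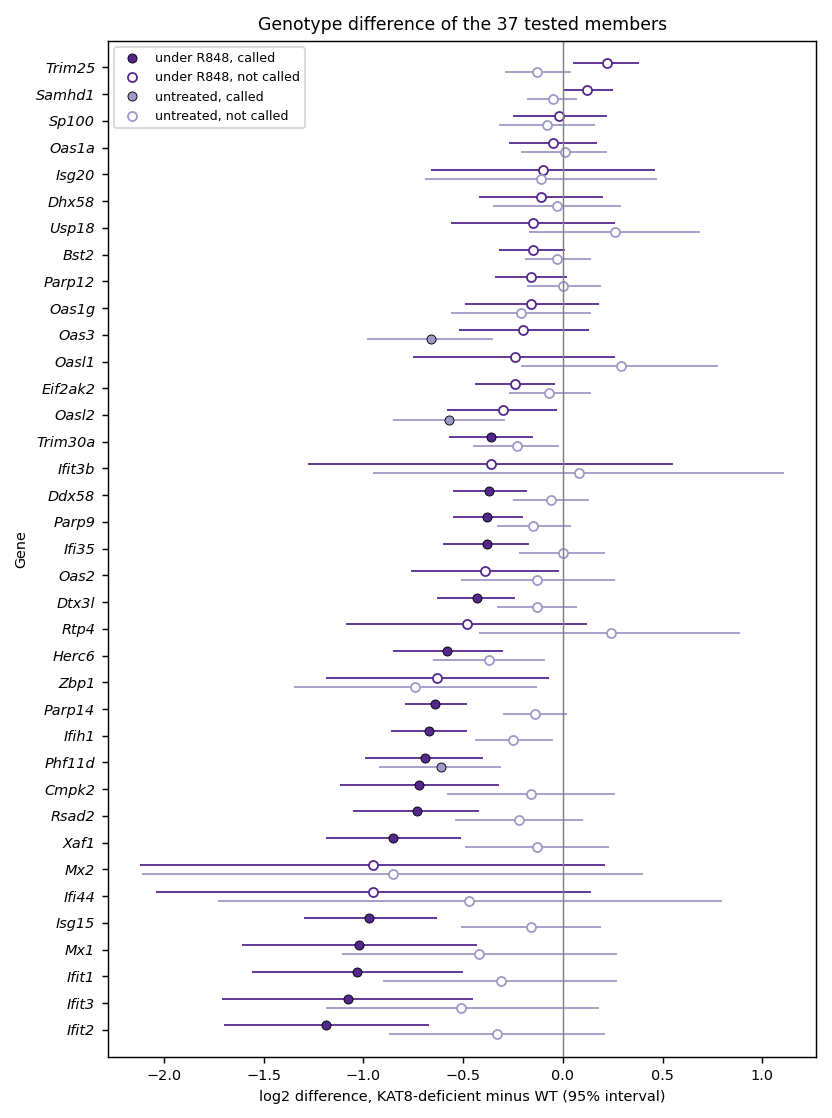
The log2 difference of KAT8-deficient minus WT cells for each tested member, untreated and under R848, with 95% intervals from the edgeR fit and filled points where the adjusted p was under 0.05. The 17 filled points under R848 and the 3 untreated ones all lie below 0.

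Averaged over both states, KAT8-deficient cells were lower in 19 of 37 members (51.4%, against 7.56% of all tested genes) and higher in none (11% of all tested genes), with a median of -0.28. The 19 hold 16 of the 17 called under R848, and Oas3, Oasl2 and Zbp1 in addition. This average is made of the R848 and the untreated difference from the same libraries, so shared calls are partly built in. Only 3 of the 19 were called in untreated cells. Ifit3 (-0.79, SE 0.2, edgeR adjusted p = 0.0285), Ifit2 (-0.76, SE 0.16, 0.0142), Mx1 (-0.72, SE 0.2, 0.0367), Zbp1 (-0.68, SE 0.18, 0.032), Ifit1 (-0.67, SE 0.17, 0.0287) and Phf11d (-0.65, SE 0.094, 0.00216) had the largest called differences. Herc6, Ifih1, Isg15, Oasl2, Parp14 and Phf11d were called whichever library was left out and under each other setting tried. The count was 8 without R848-treated WT replicate 1, 12 without its replicate 2, 11 without untreated WT replicate 1, and 10 and 11 without untreated KAT8-deficient replicate 1 and 2. Without R848-treated KAT8-deficient replicate 1 it was 19 (median -0.36), with Rtp4 called in place of Ddx58, and without replicate 2 it was 16 (median -0.24), with Cmpk2, Ddx58 and Mx1 lost. The 1 member of the 17 missing here was Ifi35, at -0.19 (SE 0.067, adjusted p = 0.08).

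The IFIT genes encode proteins with tetratricopeptide repeats that bind viral RNA lacking the host cap. Ifit1 measured 6.8 and 6.9 CPM in untreated WT, 18.1 and 15.7 in R848-treated WT, 4.62 and 6.42 in untreated KAT8-deficient and 10.4 and 6.13 CPM in R848-treated KAT8-deficient cells. Both R848-treated WT libraries were above every other library. The log2 change with R848 in WT was 1.3 (SE 0.24, edgeR adjusted p = 0.00789), and the genotype difference under R848 was -1.03 (SE 0.23, adjusted p = 0.0205). Without R848-treated KAT8-deficient replicate 1 that difference was -1.46, and without replicate 2 it was -0.69 and not called (adjusted p = 0.0633). Ifit2 measured 16.1 and 13.3, 30.4 and 26.8, 10.4 and 12.9, and 15.9 and 9.24 CPM in the same order. It rose by 0.96 in WT (SE 0.23, adjusted p = 0.0239), a call kept in 4 of 8 fits that left out a library. The change of Ifit2 in KAT8-deficient cells was 0.10 (SE 0.24, adjusted p = 0.884) with overlapping libraries, and the genotype difference under R848 was -1.19 (SE 0.23, adjusted p = 0.0103).

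Ifit3, which binds and stabilises IFIT1 in human cells, measured 4.94 and 3.91, 9.65 and 7.3, 3.2 and 3.05, and 5.23 and 2.78 CPM. Its change in WT was 0.93 (SE 0.27, adjusted p = 0.058), or 0.92 and called without either R848-treated KAT8-deficient library. Ifit3 was lower in KAT8-deficient cells under R848 (-1.08, SE 0.28, adjusted p = 0.0349). This call was lost in 5 of 8 fits that left out a library, with differences from -0.69 (adjusted p = 0.114, without R848-treated KAT8-deficient replicate 2) to -1.60 (without replicate 1). Its close copy Ifit3b was at 0.559 to 1.23 CPM in all libraries and was called in no comparison. Ifit1, Ifit3 and Ifit3b are those whose promoters above hold 2 ISRE-core matches, and Ifit2, with none in its window, differed between genotypes under R848 by -1.19 beside -1.03 for Ifit1. Among members with a promoter, 6 of the 13 with a match rose with R848 in WT and 5 of the 15 tested without one. In each set 1 member fell. Under R848 7 of 13 and 7 of 15 were lower in KAT8-deficient cells. Over all tested genes 6.94% rose and 6.7% fell with R848 in WT, and 5.47% were lower in KAT8-deficient cells under R848.

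ISG15 is a ubiquitin-like protein that is attached to other proteins, and USP18 removes it and also restrains the interferon receptor. Isg15 measured 9.41 and 8.2 CPM in untreated WT, 17.7 and 15.3 in R848-treated WT, 8.4 and 7.38 in untreated KAT8-deficient and 9.33 and 7.5 CPM in R848-treated KAT8-deficient cells. Only the R848-treated WT libraries stood apart, and the other 6 overlapped. It rose by 0.90 in WT (SE 0.15, edgeR adjusted p = 0.00485), changed by 0.09 in KAT8-deficient cells (SE 0.15, adjusted p = 0.839), and was lower in them under R848 by -0.97 (SE 0.15, adjusted p = 0.00358). Herc6, which encodes the main ligase for ISG15 in mouse, measured 28.3 and 24.4, 31.1 and 30.1, 19.1 and 21.7, and 22.4 and 18.6 CPM in the same order. Every KAT8-deficient library was below every WT library, with a difference of -0.58 (SE 0.12, adjusted p = 0.0146) under R848 and -0.47 (SE 0.086, adjusted p = 0.00632) over both states. Under R848 it was -0.45 and not called (adjusted p = 0.0759) without R848-treated KAT8-deficient replicate 2. Its annotated exons share 1269 bases with the predicted gene Gm45193 on the same strand. Usp18 was at 5.54 to 10.1 CPM and was called in no comparison. The conjugation partners Uba7 and Ube2l6 were called in no comparison.

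Trim25, a ubiquitin ligase that acts on RIG-I signalling, went the other way from most members. It measured 186 and 198 CPM in untreated WT, 147 and 150 in R848-treated WT, 172 and 180 in untreated KAT8-deficient and 183 and 162 CPM in R848-treated KAT8-deficient cells. The R848-treated WT libraries were the lowest. The change in WT was -0.37 (SE 0.073, edgeR adjusted p = 0.0106), and that in KAT8-deficient cells was -0.03 (SE 0.072, adjusted p = 0.892). The interaction was 0.34 (SE 0.1, adjusted p = 0.227). Trim30a, which restrains signalling from Toll-like receptors, measured 52 and 47.6, 57.9 and 57.1, 43.6 and 41.1, and 48.7 and 41 CPM. It was lower in KAT8-deficient cells under R848 (-0.36, SE 0.093, adjusted p = 0.0364), but not called without R848-treated KAT8-deficient replicate 2 (-0.24, adjusted p = 0.166).

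The OAS proteins make 2′,5′-linked oligoadenylates, and they did not move together. Oas3 measured 73.7 and 77.7 CPM in untreated WT, 46.4 and 50 in R848-treated WT, 48.2 and 47.3 in untreated KAT8-deficient and 49.5 and 34.8 CPM in R848-treated KAT8-deficient cells. Untreated WT was the high group, and the other 3 overlapped. Oas3 fell by 0.65 with R848 in WT (SE 0.14, edgeR adjusted p = 0.0164), a call lost without untreated replicate 2 or either R848-treated library, and it was lower in untreated KAT8-deficient cells by -0.66 (SE 0.14, adjusted p = 0.0363). Under R848 the genotype difference was -0.20 (SE 0.14, adjusted p = 0.41), and it was -0.47 (adjusted p = 0.0227) without R848-treated KAT8-deficient replicate 1. Its neighbour Oas2 measured 11 and 10.6, 13.9 and 19.3, 9.39 and 10.4, and 13.7 and 11.7 CPM, and rose in WT (0.62, SE 0.16, adjusted p = 0.0393), a call lost with the replicate block, with the 4 WT libraries alone and in 5 of 8 fits that left out a library (log2 changes from 0.35 to 0.83).

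Oasl2 encodes an OAS-like protein with ubiquitin-like domains. It measured 47.5 and 44.8 CPM in untreated WT, 59.8 and 62.2 in R848-treated WT, 28.2 and 34 in untreated KAT8-deficient and 55.1 and 43.7 CPM in R848-treated KAT8-deficient cells. Untreated KAT8-deficient libraries were the lowest, at -0.57 from WT (SE 0.12, edgeR adjusted p = 0.0414), and the difference over both states was -0.44 (SE 0.087, adjusted p = 0.00974). Its change with R848 was 0.40 in WT (SE 0.12, adjusted p = 0.063) and 0.67 in KAT8-deficient cells (SE 0.12, adjusted p = 0.0602), and DESeq2 called both (adjusted p = 0.0449 and 0.000502). Without R848-treated KAT8-deficient replicate 2 the change in KAT8-deficient cells was 0.82 and called. The WT change was 0.39 and called without either R848-treated KAT8-deficient library. Oasl1, which restrains translation of Irf7, measured 14.4 and 23.4, 15.5 and 17.9, 22.3 and 23.6, and 16.1 and 12.1 CPM, and its change in KAT8-deficient cells was -0.71 (SE 0.22, adjusted p = 0.217). Oas1a was at 46.9 to 57 CPM and Oas1g at 8.61 to 14.9 CPM, and neither was called in the main fit. The WT change of Oas1g was 0.51 there, and 0.50 and called without either R848-treated KAT8-deficient library.

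MX1 is a dynamin-like GTPase that blocks viral ribonucleoproteins, and GENCODE annotates Mx2 as a polymorphic pseudogene, which is intact in some strains only. Mx1 measured 3.73 and 2.17 CPM in untreated WT, 7.84 and 7.2 in R848-treated WT, 2.47 and 1.98 in untreated KAT8-deficient and 4.38 and 3.02 CPM in R848-treated KAT8-deficient cells. Its R848-treated libraries were above the untreated ones in both genotypes. The change was 1.33 in WT (SE 0.27, edgeR adjusted p = 0.012) and 0.73 in KAT8-deficient cells (SE 0.29, adjusted p = 0.317), and the genotype difference under R848 was -1.02 (SE 0.26, adjusted p = 0.0338). That call was lost in 5 of 8 fits that left out a library, and the difference was -0.77 (adjusted p = 0.153) without R848-treated KAT8-deficient replicate 2 and -1.31 without replicate 1. Mx2 measured 1.91 and 1.14, 2.51 and 1.53, 0.42 and 1.28, and 1.37 and 0.707 CPM, and its differences of -0.85 (SE 0.55) untreated and -0.90 (SE 0.38) over both states did not pass (adjusted p = 0.435 and 0.133). Ifi44, at 0.472 to 2.08 CPM, differed by -0.71 over both states (SE 0.37, adjusted p = 0.217).

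Among the sensors of foreign nucleic acid, Ifih1 encodes MDA5, Ddx58 encodes RIG-I, Dhx58 encodes LGP2 and Zbp1 encodes a receptor for Z-form nucleic acid. Ifih1, given in full because its calls were among the steadiest and so chosen after its values were seen, measured 35.1 and 33.6 CPM in untreated WT, 51.7 and 51.3 in R848-treated WT, 29.8 and 28 in untreated KAT8-deficient and 34.4 and 30.2 CPM in R848-treated KAT8-deficient cells. R848-treated KAT8-deficient cells overlapped untreated WT cells. It rose by 0.58 in WT (SE 0.083, edgeR adjusted p = 0.00229) and was lower in KAT8-deficient cells under R848 (-0.67, SE 0.083, adjusted p = 0.00139). Ddx58 measured 35.7 and 31.7, 48.9 and 51.1, 31.1 and 33.5, and 39.3 and 38.3 CPM, with a change of 0.57 in WT (adjusted p = 0.00256) and a difference of -0.37 under R848 (adjusted p = 0.0199), which was not called without either R848-treated KAT8-deficient library (-0.38 and -0.34, adjusted p = 0.0833 and 0.092). Within each genotype the R848-treated libraries were above the untreated ones for these 2 genes, but Dhx58, at 15.7 to 20.7 CPM, was called in no comparison. Zbp1 measured 8.11 and 7.44, 12.5 and 10.7, 5.3 and 4.01, and 9.61 and 5.38 CPM, and its genotype difference under R848 was -0.63 (SE 0.25, adjusted p = 0.134), or -1.11 (adjusted p = 0.0195) without R848-treated KAT8-deficient replicate 1. Eif2ak2, which encodes the RNA-activated kinase PKR, rose in WT by 0.49 (SE 0.09, adjusted p = 0.00786), from 39.9 and 35 to 54.1 and 51.4 CPM.

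PARP14 and PARP9 belong to the ADP-ribosyltransferase family, and PARP9 works in a complex with the ubiquitin ligase DTX3L. Parp14 measured 94.7 and 88.6 CPM in untreated WT, 195 and 188 in R848-treated WT, 78.8 and 87.6 in untreated KAT8-deficient and 125 and 121 CPM in R848-treated KAT8-deficient cells. No pair of groups overlapped for this gene. It rose by 1.06 in WT (SE 0.07, edgeR adjusted p = 9e-05) and by 0.57 in KAT8-deficient cells (SE 0.07, adjusted p = 0.0273), and the genotype difference under R848 was -0.64 (SE 0.069, adjusted p = 0.00087). The KAT8-deficient call was lost without either R848-treated WT library, without untreated KAT8-deficient replicate 1, without R848-treated KAT8-deficient replicate 2 and with the 4 KAT8-deficient libraries alone, at adjusted p up to 0.169. Parp9 and Dtx3l, which share exonic bases, rose by 0.48 and 0.62 in WT (adjusted p = 0.0045 and 0.00203) and were lower by -0.38 and -0.43 in KAT8-deficient cells under R848 (adjusted p = 0.0143 and 0.0114). Without R848-treated KAT8-deficient replicate 2 neither of these differences was called (-0.34 and -0.33, adjusted p = 0.076 and 0.0622), and without replicate 1 that of Parp9 was not (-0.40, adjusted p = 0.0603). Parp12 was at 53.9 to 67.4 CPM and was called in no comparison.

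Rsad2 encodes viperin, a radical SAM enzyme that makes a chain-terminating nucleotide, and its neighbour Cmpk2 encodes a nucleotide kinase. Rsad2 measured 35.6 and 34.4 CPM in untreated WT, 60.4 and 54.8 in R848-treated WT, 26.9 and 33.2 in untreated KAT8-deficient and 39.3 and 30.1 CPM in R848-treated KAT8-deficient cells. It rose by 0.72 in WT (SE 0.14, edgeR adjusted p = 0.00989) and was lower under R848 by -0.73 (SE 0.14, adjusted p = 0.00954). Cmpk2 measured 12.3 and 9.88, 21.3 and 17.6, 9.71 and 10.1, and 13.7 and 9.9 CPM, with values of 0.81 (SE 0.18, adjusted p = 0.018) and -0.72 (SE 0.18, adjusted p = 0.0289) for the same comparisons, the second of which was not called without R848-treated KAT8-deficient replicate 2 (-0.50, adjusted p = 0.126). In both neighbours the R848-treated WT libraries were the highest, and the R848-treated KAT8-deficient libraries overlapped untreated KAT8-deficient libraries.

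Xaf1, which encodes a partner of the apoptosis inhibitor XIAP, measured 6.15 and 7.33, 13.3 and 12.3, 6.61 and 5.67, and 7.73 and 6.46 CPM in the same order of groups. It rose by 0.93 in WT (SE 0.15, edgeR adjusted p = 0.00436) and was lower in KAT8-deficient cells under R848 (-0.85, SE 0.15, adjusted p = 0.00647). Rtp4 measured 7.73 and 6.63, 16.3 and 15.3, 8.71 and 8.24, and 15.2 and 7.4 CPM, so 1 R848-treated KAT8-deficient library lay near R848-treated WT and the other within untreated WT. It rose in WT (1.13, SE 0.28, adjusted p = 0.029), a call kept in 2 of 8 fits that left out a library. The WT change was 1.03 to 1.24 over all settings tried. The genotype difference of Rtp4 under R848 was -0.48 (SE 0.27, adjusted p = 0.281), or -1.09 without R848-treated KAT8-deficient replicate 1. Ifi35 measured 17.7 and 17.1, 24.4 and 23.4, 17.8 and 16.9, and 19.3 and 17.4 CPM, with 0.46 in WT (SE 0.094, adjusted p = 0.0135) and -0.38 under R848 (SE 0.094, adjusted p = 0.0289), which was not called without either R848-treated KAT8-deficient library (-0.46 and -0.31, adjusted p = 0.0512 and 0.134).

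Phf11d was the member with called differences in both states. It measured 21 and 20.6 CPM in untreated WT, 28.1 and 22.2 in R848-treated WT, 14.4 and 12.8 in untreated KAT8-deficient and 16.4 and 14.6 CPM in R848-treated KAT8-deficient cells. All KAT8-deficient libraries were below all WT libraries. The difference was -0.61 untreated (SE 0.13, edgeR adjusted p = 0.0409) and -0.69 under R848 (SE 0.13, adjusted p = 0.00954), or -0.61 and not called (adjusted p = 0.0508) without R848-treated KAT8-deficient replicate 2. In addition, 8.09% of its 50-base words occur in other genes. Bst2 (97.5 to 116 CPM), Samhd1 (141 to 159 CPM), Sp100 (33.7 to 41 CPM) and Isg20 (2.83 to 4.39 CPM) were called in no comparison.

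**Figure D5:**
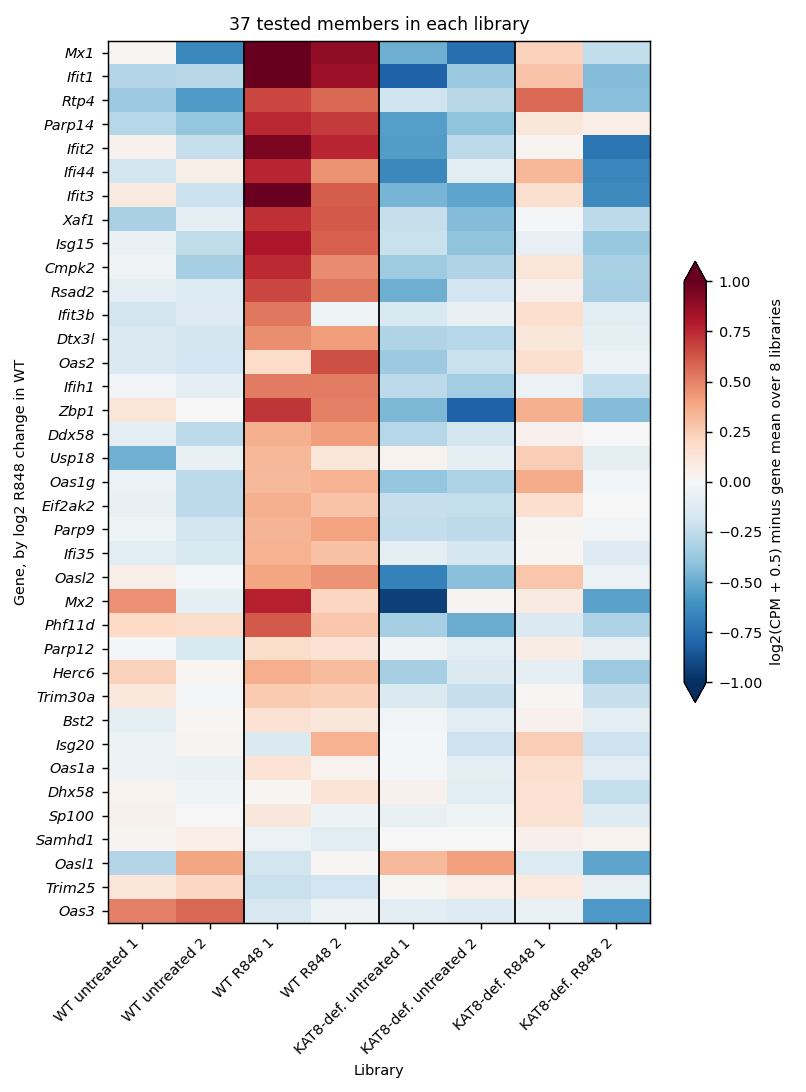
Each row is 1 of the 37 tested members and each column 1 library, and the colour gives log2(CPM + 0.5) minus the member's mean over the 8 libraries, with the scale ending at 1 and -1. Most members are highest in the 2 R848-treated WT columns (median deviation 0.37 and 0.35) and lower in the untreated KAT8-deficient columns (-0.25 and -0.22), and the 2 R848-treated KAT8-deficient columns differ (0.11 and -0.23).

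The rest of the pathway was described from lists written with earlier results of these data known. None of the 18 ligand genes of type I interferon had more than 2 counts in any library, and 13 had none in all 8. Ifnb1 had 1 count in untreated WT replicate 2 and 0 elsewhere, so interferon transcripts were not detectable at this depth in either genotype at this time. In the receptor and ISGF3 list of 7, 3 rose with R848 in WT: Ifnar1 (0.46, SE 0.07, edgeR adjusted p = 0.0033), Ifnar2 (0.36, SE 0.071, adjusted p = 0.0105) and Stat2 (0.51, SE 0.086, adjusted p = 0.00551). None of the 7 passed in KAT8-deficient cells with R848. Of all tested genes, 6.94% rose in WT and 0.499% in KAT8-deficient cells. Under R848 Ifnar2 was lower in KAT8-deficient cells (-0.37, SE 0.071, adjusted p = 0.0102), from 127 and 118 to 92.9 and 96.7 CPM. Irf9, at 26.6 to 33.3 CPM, was called in no comparison.

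In the list of 17 tested genes of interferon induction, Ikbke, Myd88 and Tbk1 rose with R848 in WT, and Ikbke also in KAT8-deficient cells. Ikbke, which encodes the kinase IKKε that activates IRF3 and IRF7, measured 159 and 157 CPM in untreated WT, 282 and 312 in R848-treated WT, 132 and 136 in untreated KAT8-deficient and 197 and 232 CPM in R848-treated KAT8-deficient cells. It rose by 0.91 in WT (SE 0.086, edgeR adjusted p = 0.000287) and 0.68 in KAT8-deficient cells (SE 0.086, adjusted p = 0.0273). Irf7, the master regulator of interferon α genes and itself an interferon target, measured 23 and 22, 27.6 and 24.9, 14.2 and 12.5, and 19.4 and 14.4 CPM. Every KAT8-deficient library was below every WT library, and the difference was -0.76 untreated (SE 0.15, adjusted p = 0.029) and -0.63 under R848 (SE 0.14, adjusted p = 0.0211). Its change with R848 was 0.22 in WT and 0.34 in KAT8-deficient cells, and neither passed (adjusted p = 0.365 and 0.356). Ikbke (-0.47), Chuk (-0.27) and Tbk1 (-0.23) were also lower in KAT8-deficient cells under R848 (adjusted p = 0.00798, 0.0464 and 0.0478). Tlr7, the receptor for R848, varied widely within groups, at 30.2 and 33.9, 84.6 and 35.2, 33.1 and 77.9, and 29.6 and 69.1 CPM, and was called in no comparison.

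Of 25 tested interferon-stimulated genes outside the members, 6 rose with R848 in WT (Cxcl10, Gbp3, Helz2, Nmi, Slfn8 and Znfx1) and 1 fell (Pml, -0.80, SE 0.18, edgeR adjusted p = 0.0214). Of all tested genes, 6.94% rose and 6.7% fell in WT. In KAT8-deficient cells Cxcl10 rose, and no other of the 25 did, while 0.499% of all tested genes rose. Gbp3, a guanylate-binding protein gene, and Lgals3bp were lower in KAT8-deficient cells in both states, at -0.63 and -0.57 untreated (adjusted p = 0.0313 and 0.0113) and -1.25 and -0.60 under R848 (adjusted p = 0.000583 and 0.00249). Apobec3, Helz2 and Cxcl10 were lower under R848 as well (-0.40, -0.38 and -1.17, with adjusted p = 0.0322, 0.0246 and 0.000857). Over both states 8 of the 25 were lower and none was higher, with a list median of -0.21, while 7.56% of all tested genes were lower and 11% higher. In the list of 9 brakes on the pathway, Socs3, which encodes an inhibitor of JAK kinases, rose with R848 in WT (1.58, SE 0.14, adjusted p = 0.000238) and was lower in KAT8-deficient cells under R848 (-0.90, SE 0.14, adjusted p = 0.00356), and the other 8 were called in no comparison.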

How the data were processed

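Messenger RNA of 8 mouse BMDM libraries was measured as counts that the authors deposited for each Ensembl gene (file headers). HISAT2, StringTie 1.3.0 and edgeR on mm10 stand in the submitters' processing notes, and the role of each, the strand and the counting settings are not given in the sources used. All columns were matched to samples by name. Symbols and positions came from GENCODE M21 (GRCm38, the mm10 build) for 34344 of 34745 genes, and the 401 without a symbol held 0.102% of counts. Promoters came from RefSeq (GRCm38.p6).

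Genes were filtered with filterByExpr in edgeR 4.0.16 (R 4.3.3), leaving 14040 genes with 99.95% of counts, and scaled by TMM. All 8 libraries were fitted with the quasi-likelihood model, 1 mean per group and 4 residual degrees of freedom (common biological coefficient of variation 0.0956). Adjusted p-values are two-sided edgeR values, adjusted by Benjamini-Hochberg over 14040 genes, with a threshold of 0.05. An SE is the absolute log2 change divided by the square root of F, and CPM uses TMM library sizes. Replicates of a group differed beyond counting error (chi-square per degree of freedom 7.83 to 12.7). The method was tested on simulated counts. Floors of 3 counts cover counting error only. In the plot of all members by library, 0.5 CPM was added before the logarithm.

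The members, lists, tests and naming rule were chosen with earlier results of these data known. Members called in a comparison are given in full, and where over 12 were called, the 8 with the largest change and the 4 with the highest level (CPM per kb) are. Others named in full were chosen after their values were seen. Pathway genes are named where called, and Ifnb1, Ifnar1, Stat2, Irf7, Irf9, Tlr7 and Kat8 always. Some pathway genes that meet this rule are not reported here. Alternatives were scaling by DESeq2 size factors, all genes kept, only genes with 5 CPM or more in 2 libraries, DESeq2's Wald test (1.42.0), the replicate number as a block, fits of 4 libraries alone, and leaving out each library.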

Additional observations from a re-analysis of the deposited data

Results flagged for a closer look

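The R848 responses of 2 pathway genes outside the members differed between the genotypes by edgeR's interaction test over all genes. For Cxcl10, which encodes a chemokine for T cells, the response in KAT8-deficient cells less that in WT was -1.60 on the log2 scale (SE 0.2, adjusted p = 0.0252). Its libraries measured 5.4 and 4.29 CPM in untreated WT, 28 and 29.3 in R848-treated WT, 6.88 and 6.21 in untreated KAT8-deficient and 11.8 and 13.6 CPM in R848-treated KAT8-deficient cells. For Socs3 the same difference was -1.38 (SE 0.2, adjusted p = 0.0428), with 18.7 and 20.3, 59.5 and 57.1, 29.9 and 24.1, and 27 and 35.3 CPM in that order.

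Among the members, Samhd1 had R848 changes in opposite directions without overlap of the libraries: -0.13 in WT, from 154 and 159 to 146 and 141 CPM, and 0.04 in KAT8-deficient cells, from 151 and 151 to 157 and 155 CPM. Neither change passed edgeR's test (adjusted p = 0.165 and 0.774), and the interaction was 0.17 (SE 0.078, adjusted p = 0.445). Libraries without overlap were common among all tested genes. In WT cells 27.7% of these were higher and 28.3% lower with R848 in this way, and in KAT8-deficient cells 23.8% and 23%. How many genes had opposite directions in the genotypes was not counted, so whether Samhd1 stands apart was not tested.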

How the results depend on the processing

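No called result changed direction under the settings tried, and scaling by DESeq2 size factors left each count of called members as it was. For R848 in KAT8-deficient cells, 1 called member became 2 without the filter on low counts and 2 with DESeq2, where Oasl2 joined Parp14, and 0 with the 4 libraries alone. The interaction had 0 called members, and 1 (Parp14) both without the filter and with DESeq2. Leaving out 1 library gave 7 to 21 called for R848 in WT, 0 to 1 for R848 in KAT8-deficient cells, 0 to 3 for KAT8 deficiency untreated, 3 to 17 under R848, 0 to 1 for the interaction and 8 to 19 over both states. With fewer libraries the spread rests on fewer residual degrees of freedom, and a group left with 1 library is assumed to vary like the others.

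The replicate numbers were not shown to pair the libraries: differences between replicate 1 and 2 correlated at -0.03 to 0.05 between groups. The fit with the replicate number as a block called 18, 1, 2, 18, 0 and 19 members in the 6 comparisons, against 18, 1, 3, 17, 0 and 19 without it. Under R848, Ifi35 was lost with DESeq2, and Ifi35, Cmpk2, Ifit1, Ifit3 and Trim30a with the 4 libraries alone. Depth limits Mx2, Ifit3b and Ifi44 most, whose levels were under 3 CPM in every library.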
